A study of Mus musculus with 2 samples.

Results

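Chil1, Chil3 and Chia1 are chitinase family genes of the mouse, and they were examined in both libraries of a single-cell RNA sequencing experiment on metastatic lungs. They are 3 of the 27999 genes listed. They were picked by name because earlier results of these data had shown their levels by cell class, so those levels are given as a description. Droplet libraries (10x Genomics) were made from dissociated lungs of female FVB/NJ mice that received Met-1 cells through the tail vein at 10 weeks of age. Met-1 is a mammary carcinoma line from the MMTV-PyMT model, in which a viral promoter active in the mammary gland drives the polyomavirus middle T oncogene (PYMT). Lungs of low burden came from 1 mouse, taken at week 1, and lungs of high burden from 1 mouse at week 3. Both groups carried the tumor cells, and no lung without tumor cells was analysed here. With 1 library per group there is no replicate check and no test, and week, burden, mouse and sequencing depth cannot be told apart.

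Family 18 of the glycosyl hydrolases holds enzymes that cut chitin, the polymer of insect, mite and fungal walls, and relatives that still bind sugars but cannot cut. Chia1 encodes acidic mammalian chitinase, the active enzyme of mouse airways and alveoli. Chil1 encodes the chitinase-like protein known as BRP-39, the mouse counterpart of human YKL-40, which is linked to tissue repair and tumor growth. Chil3 encodes Ym1, a secreted lectin of alveolar macrophages and of macrophages exposed to the type 2 cytokines IL-4 and IL-13.

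The coding sequences differ at the residue that does the cutting. The stretch around the active site is shown for each gene, in GRCm38 (mm10) with GENCODE M21, read 5′ to 3′ on the coding strand of the C57BL/6J reference. Capitals mark the codon at the position of the catalytic glutamate.
Chia1: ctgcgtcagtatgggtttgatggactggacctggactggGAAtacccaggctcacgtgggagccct
Chil1: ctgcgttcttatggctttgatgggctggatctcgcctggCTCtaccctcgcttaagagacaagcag
Chil3: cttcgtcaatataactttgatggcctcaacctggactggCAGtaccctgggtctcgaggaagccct
In Chia1 (ENSMUSG00000062778), the capitals spell a glutamate codon. In Chil1 (ENSMUSG00000064246) and Chil3 (ENSMUSG00000040809), they do not. The Chia1 stretch lies on the plus strand at chr3:106122430-106122495, in coding exon sequence of the gene at chr3:106113229-106132120. The Chil1 stretch is on the plus strand at chr1:134185213-134185278, within chr1:134182176-134190181. The Chil3 stretch is on the minus strand at chr3:106160404-106160469, within chr3:106147554-106167564. Each stretch falls in exon 5 of its transcript.

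Translated and aligned, Chil3 and Chia1 were identical at 66.8% of 398 aligned residues, Chil1 and Chia1 at 46.8% of 380, and Chil1 and Chil3 at 44.3% of 379. The closest relative of Chil3 is Chil4 (Ym2), its neighbor on chromosome 3, at 91.2% identity. Over the last 500 bases of each transcript, the region that 3′ libraries read, 17.8% of the 50-base windows of Chil3 also occurred in Chil4 or Gm6522. No such window was shared for Chil1 or Chia1. Chil4 had 1 UMI (unique molecular identifier, 1 counted RNA molecule) in both libraries together, and the Chil3 counts are uncertain in how reads from shared windows were assigned.

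The cell filter of the study (1000 to 7000 genes, at most 10% mitochondrial UMIs) kept 2473 cells at low burden with a median of 4073 UMIs, and 3033 cells at high burden with a median of 13998. The libraries shared 11 cell barcodes. Classes were assigned by gates on marker genes without any chitinase family gene, and 4746 cells received a class. AT2-like cells (alveolar type 2, the surfactant producers) numbered 118 at low and 67 at high burden. Alveolar macrophage-like cells numbered 437 (17.7% of kept cells) and 3 (0.0989%). Other myeloid-like cells (macrophage, monocyte, dendritic and neutrophil gates) numbered 324 and 889, and lymphocyte-like cells 232 and 83. The high burden library also held 1111 metastatic-like cells. AT2-like cells were led by Sftpa1, Sftpc and Sftpd, and alveolar macrophage-like cells by Ear1, Ear2 and Ear10. Jchain, a plasma cell gene, led the monocyte-like, neutrophil-like and B-like gates beside their own markers. Chia1 itself was among the 10 leading genes of AT2-like cells and Chil3 among those of alveolar macrophage-like cells.

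Levels are the UMIs of all cells in a class and library together, scaled to 1000000 UMIs of that class (CPM). Intervals are exact 95% intervals (Poisson for levels, conditional binomial for ratios, Clopper-Pearson for shares) that cover counting error only. RNA free in the droplets can place UMIs in cells that do not express a gene. The lymphocyte-like class, which should lack all 3 genes, is therefore given as the background level.

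Most UMIs of each gene lay in 1 class at low burden. AT2-like cells, with 5.45% of the UMIs of that library, held 86.9% of its Chia1 UMIs (84.2 to 89.3) and 61.0% of its Chil1 UMIs (53.3 to 68.4). Alveolar macrophage-like cells, with 11.6% of the UMIs, held 84.0% of the Chil3 UMIs (83.3 to 84.7). At high burden, AT2-like cells held 72.5% of Chia1 and 41.4% of Chil1. The other Chil1 UMIs at high burden were spread, with 16.3% in mesothelial-like and 16.3% in other myeloid-like cells. For Chil3, metastatic-like cells held the highest share at high burden, 40.4%, below the 53.3% of all UMIs that this class contributed.

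**Figure D1:**
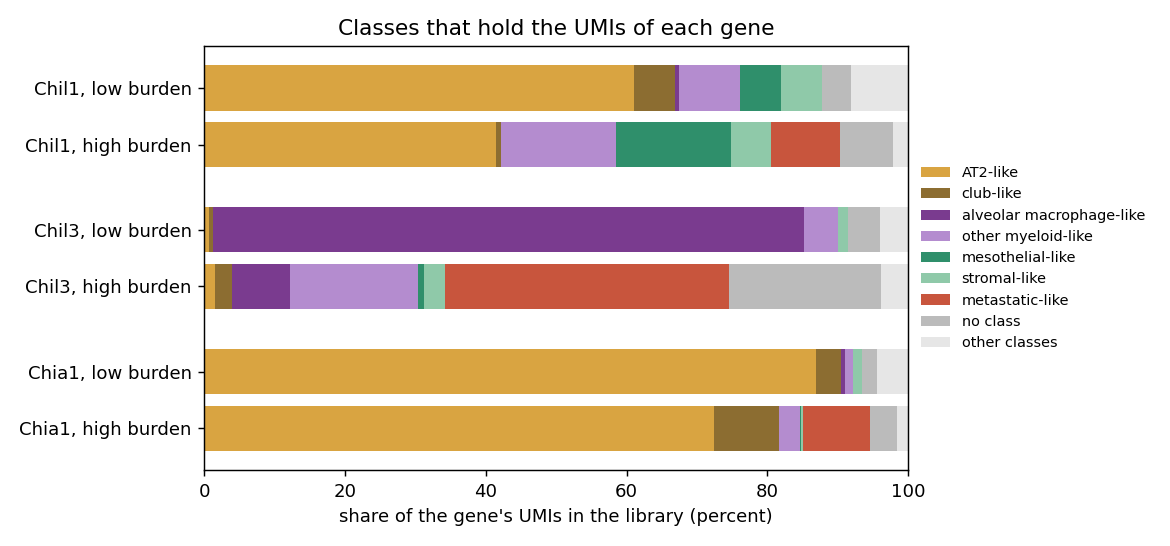
Share of each gene's UMIs (percent, horizontal axis) by cell class, 1 bar per gene and library. AT2-like cells held 86.9% of Chia1 and 61.0% of Chil1 at low burden, and alveolar macrophage-like cells 84.0% of Chil3, while at high burden alveolar macrophage-like cells held 8.26% of Chil3.

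**Figure D2:**
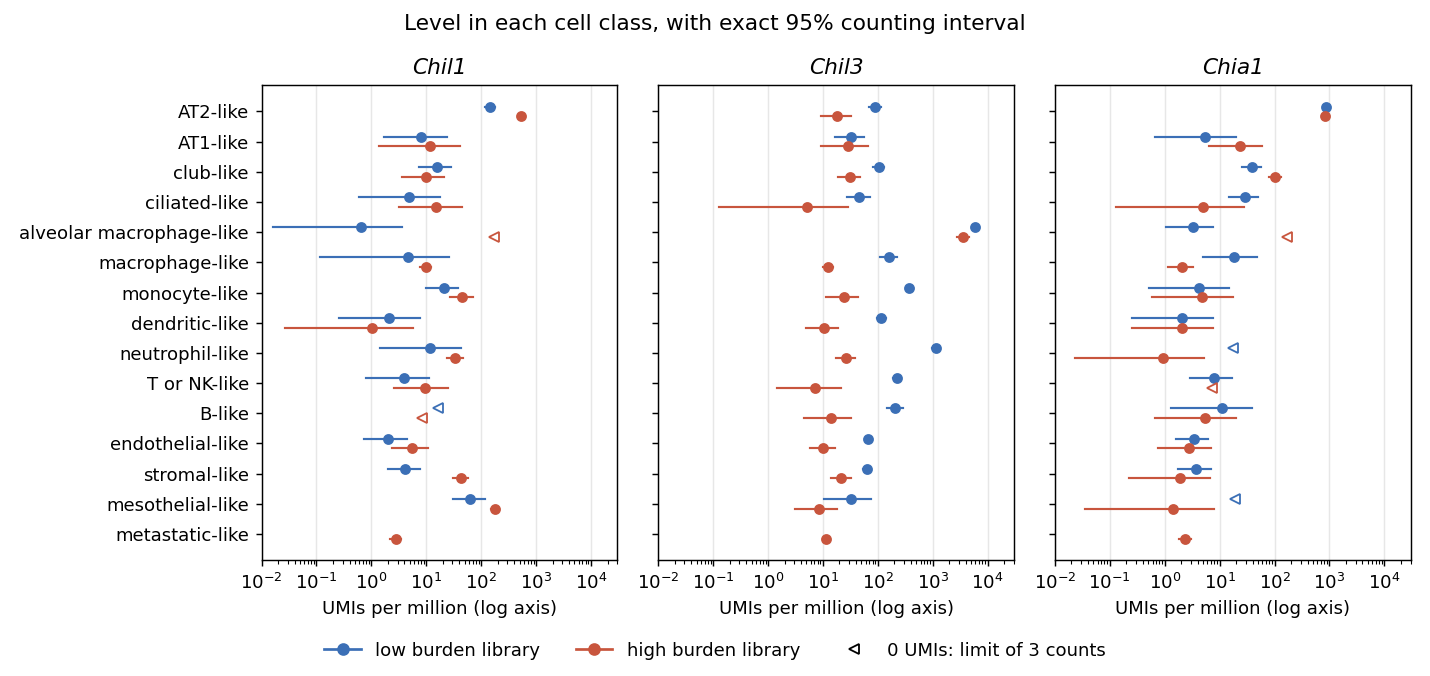
Level of each gene in each class (CPM, log axis) in the low and high burden libraries, with exact 95% counting intervals. A triangle is the limit that 3 counts would set where there were 0 UMIs. Chil1 and Chia1 were highest in AT2-like cells and Chil3 in alveolar macrophage-like cells, and the high burden level of Chil3 lay below the low burden level in each class present in both, with intervals that overlap in AT1-like, ciliated-like and mesothelial-like cells.

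Chia1, the active chitinase, was an AT2 gene in both libraries. Its level in AT2-like cells was 864 CPM at low burden (797 to 934, 625 UMIs) and 824 CPM at high burden (753 to 900.1, 495 UMIs). The lymphocyte-like level was 8.39 CPM and 2.56 CPM. The AT2-like level was 103-fold that level at low burden (log2 ratio 6.69, 5.70 to 7.90) and 322-fold at high burden (8.33, 6.47 to 11.4).

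A Chia1 UMI was seen in 81.4% of AT2-like cells at low burden and 83.6% at high burden, at median depths of 5754 and 7170 UMIs. In lymphocyte-like cells the shares were 3.45% and 2.41%, at 3320 and 7190 UMIs. Thinned to 3000 UMIs per cell, the AT2-like shares were 72.8%, with 4 cells left out as too shallow, and 52.2%, with 0 left out. The thinned lymphocyte-like shares were 2.76%, with 87 cells left out, and 0%. The median AT2-like cell held 557 CPM in the low and 343 CPM in the high burden library, and the highest cell held 28 and 58 UMIs.

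Between the libraries, Chia1 in AT2-like cells had a log2 ratio of −0.07 (−0.24 to 0.10), whose interval includes 0. Of 2801 genes with at least 50 UMIs in these cells, 5.43% were 2-fold or more higher and 2.57% 2-fold or more lower at high burden, with a median log2 ratio of 0.11. The sign of the ratio, and whether its interval included 0, changed with the processing. It was 0.26 (0.08 to 0.44) with AT2-like cells taken by clustering and 0.12 (−0.15 to 0.39) after thinning. It was 0.29 (0.11 to 0.47) in cells with at least 15% surfactant UMIs, a limit that was set with the values known. As a mean of cells it was 0.21.

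In club-like cells, secretory cells of the airway, Chia1 stood at 38.8 CPM at low burden (25 UMIs, 10 of 36 cells) and 102.5 CPM at high burden (63 UMIs, 11 of 32 cells). The log2 ratio was 1.40 (0.71 to 2.13), in a class where 4.71% of 1909 genes were 2-fold or more higher. A single cell held 39 of the 63 UMIs, and 24 remained without it. Ciliated-like cells had 12 UMIs at low burden, 29.0 CPM, above the lymphocyte-like level, and 1 at high burden.

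The ratio of Chia1 to the surfactant genes was then set beside that of AT2-like cells in each class. The surfactant genes used are markers of the AT2-like gate, so cells of that class were selected for them. AT2-like cells had 0.343 Chia1 UMIs per 100 UMIs of Sftpa1, Sftpb, Sftpc and Sftpd at low burden, and 0.421 at high burden. Endothelial-like cells had 0.318 and 0.353, stromal-like cells 0.347 and 0.246, and metastatic-like cells 0.339, each with an interval of the ratio to AT2-like cells that includes 0 on the log2 scale. At low burden the interval lay above 0 in club-like (0.689), ciliated-like (0.691) and macrophage-like cells (1.32, from 4 UMIs). The low burden ratio was 0.101 in AT1-like cells (2 UMIs), and 0 Chia1 UMIs were seen in neutrophil-like and mesothelial-like cells. At high burden the interval lay above 0 in club-like cells (1.92) and below 0 in other myeloid-like cells (0.246) and in those of the macrophage-like gate among them (0.247). The part of AT2 RNA in the Chia1 level of other classes was not tested.

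Chil1 was highest in AT2-like cells too, with mesothelial-like and monocyte-like cells behind them. At low burden its level was 145 CPM in AT2-like cells (119 to 176, 105 UMIs), 63.7 CPM in mesothelial-like cells (30.5 to 117, 10 UMIs) and 21.0 CPM in monocyte-like cells (10.1 to 38.5, 10 UMIs). Club-like cells followed with 15.5 CPM (7.44 to 28.5, 10 UMIs). These 4 classes, of 14, lay above the lymphocyte-like level of 3.15 CPM with an interval of the ratio above 0. AT2-like cells exceeded mesothelial-like cells by a log2 ratio of 1.19 (0.25 to 2.29), and mesothelial-like exceeded monocyte-like cells by 1.60 (0.18 to 3.02). From monocyte-like cells down, no class differed from the next beyond counting error. At high burden the order again began with AT2-like and mesothelial-like cells, 1.59 apart on the log2 scale (1.29 to 1.90). Mesothelial-like cells exceeded monocyte-like cells by 1.99 (1.28 to 2.76). Monocyte-like, stromal-like and neutrophil-like cells did not differ from one to the next beyond counting error, and neutrophil-like exceeded club-like cells by 1.78 (0.52 to 3.32). A single cell held 20 of the 36 neutrophil-like UMIs, and 16 remained without it, so this last step rests in part on that cell.

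Alveolar macrophage-like cells had 1 Chil1 UMI in 437 cells at low burden, 0.647 CPM (0.0164 to 3.60). AT2-like cells exceeded them by a log2 ratio of 7.81, with a wide interval of 5.30 to 13.1 that comes from this single UMI. A Chil1 UMI was seen in 36.4% of AT2-like cells at low burden (43 of 118) and 46.3% at high burden (31 of 67). The lymphocyte-like shares were 1.29% and 3.61%. After thinning to 3000 UMIs, the AT2-like shares were 27.2% and 37.3% and the lymphocyte-like shares 1.38% and 2.41%.

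AT2-like cells with and without Chil1 had a Chia1 UMI about equally often. Of the 43 low burden cells with a Chil1 UMI, 81.4% also had a Chia1 UMI, against 81.3% of the 75 cells without Chil1. At high burden these shares were 83.9% and 83.3%, and after thinning 52.0% and 52.4%.

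Chil1 in AT2-like cells went from 105 UMIs (145 CPM) at low burden to 325 UMIs (541 CPM, 484 to 603) at high burden. The log2 ratio was 1.90 (1.58 to 2.23), or 3.73-fold, where 5.43% of the 2801 genes were 2-fold or more higher. A lower ratio was seen for 98.8% of those genes. Few cells held most of the UMIs at high burden. The 6 highest cells at high burden held 86, 59, 38, 36, 23 and 19 UMIs, together 261 of the 325. At low burden the highest cell held 10 and the 6 highest held 44 of 105. Once the 6 top cells of each library were dropped, Chil1 in AT2-like cells went from 90.4 to 127 CPM. The log2 ratio was then 0.49, and its interval (−0.04 to 1.02) includes 0. The median AT2-like cell had 0 Chil1 UMIs in both libraries.

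In all, 8 of 67 cells at high burden reached 1000 CPM of Chil1 (11.9%, 5.30 to 22.2), against 1 of 118 at low burden (0.847%, 0.0215 to 4.63). These 8 cells were deeper than the other 59 AT2-like cells of the library, with medians of 14673 and 6695 UMIs. By cell, the share of surfactant UMIs ran from 7.11% to 34.2% in the 8 cells and from 2.39% to 37.7% in the others. Summed over cells, Sftpc and Sftpd, both markers of the AT2-like gate, were not lower in the 8 cells. Sftpc stood at 175876 CPM in the 8 cells and 165289.9 CPM in the others, and Sftpd at 5997 against 3177 CPM. Chia1 went the other way, with 243 CPM in the 8 cells (26 UMIs) and 950.2 CPM in the others (469 UMIs).

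**Figure D3:**
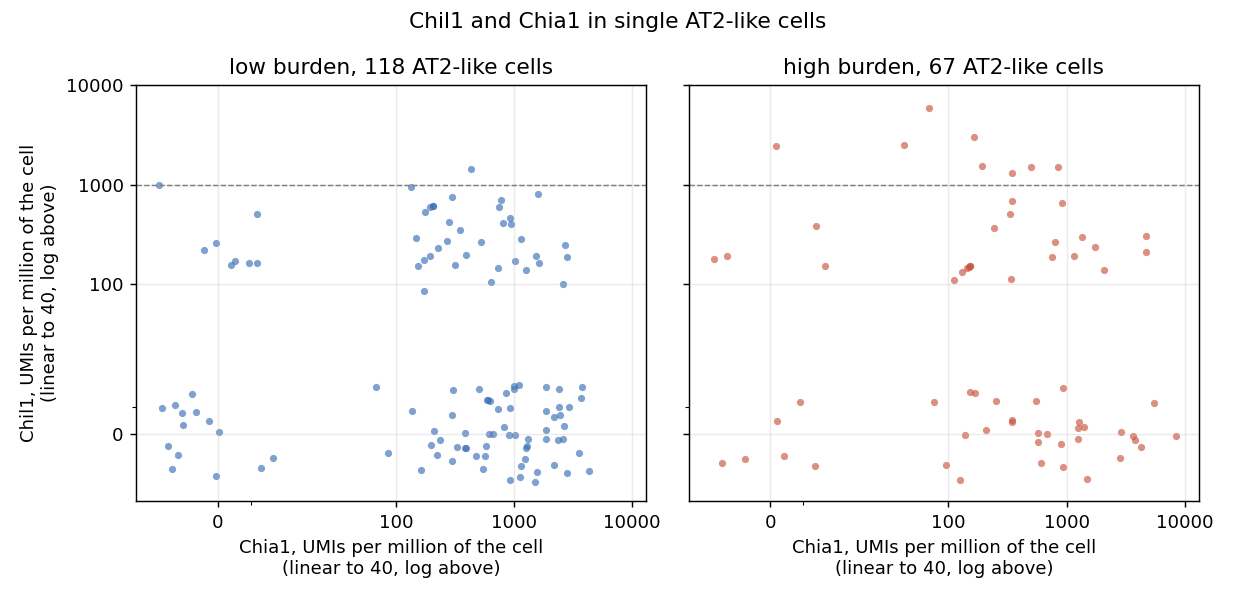
Chil1 (vertical axis) against Chia1 (horizontal axis) in single AT2-like cells, as CPM of the cell, on axes that are linear to 40 and logarithmic above, with cells at 0 spread around 0 to keep them apart. Above the dashed line at 1000 CPM of Chil1 lie 1 of 118 cells at low burden and 8 of 67 at high burden.

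Other genes in these 8 cells were looked up after their values had been seen, so they are a description. Lcn2 (lipocalin 2, an iron-binding acute-phase protein) stood at 5651 CPM in the 8 cells, 648 CPM in the other high burden AT2-like cells and 203 CPM at low burden. Lrg1, another acute-phase gene, stood at 1980.3, 245 and 173 CPM. Retnla, a type 2 response gene that encodes the secreted protein RELM-alpha, had 137 of its 149 UMIs in them. The antigen presentation genes H2-K1 and B2m stood at 3568 and 6156 CPM against 841 and 1698 CPM in the others. Pigr, the transporter of secreted antibodies, had 30 UMIs in the 8 cells and 2 in the 59. The blood cell marker C1qa stood at 103 CPM in the 8 cells against 255 CPM. Ptprc, another blood cell marker, stood at 18.7 against 26.3 CPM, from 2 and 13 UMIs, with a log2 interval (−3.69 to 1.65) that includes 0. Ager, a marker of AT1 cells, was higher in the 8 cells, at 1784 against 1114 CPM (log2 ratio 0.68, 0.43 to 0.92). Scgb1a1, the club cell marker, stood at 1364 against 2309.7 CPM. Lcn2 was also the leading gene of metastatic-like cells, and Lcn2 and Retnla were among the 10 leading genes of neutrophil-like cells. The part of RNA from those classes was not tested.

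PYMT moved with this result. A PYMT UMI was seen in 6 of the 8 cells and in 26 of the 67 AT2-like cells at high burden, with at most 4 such UMIs in a cell. Chil1 stood at 945 CPM in the 26 cells with PYMT and 212 CPM in the 41 without, with median depths of 8950 and 6626 UMIs. Without the PYMT cells the log2 ratio of Chil1 was 0.54 (0.09 to 0.99). The PYMT level of AT2-like cells, 69.9 CPM, was close to that of lymphocyte-like (65.2), endothelial-like (68.0) and metastatic-like cells (67.6), although PYMT was 1 of the 11 markers of the metastatic-like gate. No PYMT UMI was seen at low burden. The part of depth and PYMT in the Chil1 difference was not tested.

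Chil1 was also higher at high burden in 2 classes outside the alveolar and airway epithelium. Mesothelial cells line the surface of the lung. In the mesothelial-like class Chil1 went from 10 UMIs in 22 cells (63.7 CPM) to 128 UMIs in 38 cells (179.5 CPM, 149.8 to 213), a log2 ratio of 1.495 (0.57 to 2.59), where 10.4% of 2445 genes were 2-fold or more higher and 7.93% lower. The UMIs came from 29 of the 38 cells (76.3%) and the highest held 16. Cells with a UMI made up 31.8% at low burden. After thinning, the shares were 21.1%, with 3 cells left out, and 26.3%. Median depths were 6113 and 19224 UMIs. Mesothelial-like cells had 6.29 and 9.85 Chil1 UMIs per 100 surfactant UMIs, against 0.0576 and 0.277 in AT2-like cells. The mesothelial-like gate held 22 and 38 cells at each gate score tried, and the stromal gene Dcn was among its 10 leading genes. Its 4 markers (Msln, Upk3b, Lrrn4, Wt1) summed to 6326 CPM in the low and 2822 CPM in the high burden library.

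In stromal-like cells (fibroblasts, smooth muscle and pericytes) Chil1 went from 10 UMIs in 489 cells (4.16 CPM) to 45 UMIs in 94 cells (42.4 CPM, 30.9 to 56.8). The log2 ratio was 3.35 (2.34 to 4.50), where 5.47% of 7149 genes were 2-fold or more higher. The UMIs came from 20 cells and the highest held 7. The share of cells with a UMI was 1.64% and 21.3%, and 0.485%, with 77 cells left out, and 7.45% after thinning. Mesothelial markers were also counted in these cells. They summed to 5.41 CPM and 39.6 CPM in the libraries of low and high burden, where 33 of 42 UMIs were Wt1 and 8 Msln. In high burden stromal-like cells with a Chil1 UMI the sum was 61.6 CPM, and in those without one 29.9 CPM. In the cells with Chil1, 16 of these 20 marker UMIs were Wt1. Median depths were 13633 and 7640 UMIs. The low burden library went the other way, with 0 marker UMIs in 8 cells with Chil1 and 13 in 481 without (5.56 CPM). The part of mesothelial RNA in the stromal-like difference was not tested.

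Blood cell classes had lower levels of Chil1 than AT2-like cells. Monocyte-like cells had 21.0 and 45.3 CPM (10 and 19 UMIs), a log2 ratio of 1.11 whose interval (−0.06 to 2.38) includes 0. At high burden, the 7 monocyte-like cells with Chil1 held all 44 UMIs of the stromal marker Col1a1 in this class, and 2 of 12 Dcn UMIs. At low burden, the 8 such cells held 0 of 19 Col1a1 UMIs. The part of stromal RNA in the monocyte-like level was not tested. Neutrophil-like cells had 2 UMIs (11.8 CPM) in the low burden library and 36 (33.5 CPM) in the other, of which 20 lay in 1 cell. Over all other myeloid-like cells Chil1 stood at 8.27 and 12.99 CPM, a log2 ratio of 0.65 (−0.12 to 1.53), in a class where 12.4% of 9711 genes were 2-fold or more higher. Metastatic-like cells had 2.80 CPM (2.21 to 3.51) at high burden, and the lymphocyte-like level there was 5.12 CPM (1.39 to 13.1). Summed over all kept cells, Chil1 was nearly level between the libraries, at 12.9 and 15.3 CPM.

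Chil3 was a gene of alveolar macrophages at low burden. Its level in alveolar macrophage-like cells was 5893 CPM (5773 to 6015, 9110 UMIs), and 436 of the 437 cells held a UMI. After thinning, 100% of the 256 cells deep enough did, with 181 left out. The next class, neutrophil-like cells, stood at 1143 CPM (194 UMIs) and monocyte-like cells at 375 CPM (179 UMIs). The step from alveolar macrophage-like to neutrophil-like cells was 2.37 on the log2 scale (2.16 to 2.58), and the step from there to monocyte-like cells 1.61 (1.31 to 1.91). The lymphocyte-like level was 217 CPM (207 UMIs), of which a single cell held 44, and 25.4% of these cells had a UMI (17.9% after thinning). No class below monocyte-like cells exceeded this background beyond counting error. Dendritic-like, club-like, AT2-like, endothelial-like, stromal-like, ciliated-like, AT1-like and mesothelial-like cells lay below it beyond counting error. Endothelial-like cells stood at 66.5 CPM and stromal-like cells at 62.4 CPM, so the lymphocyte-like level was not a floor for Chil3 here.

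At high burden, 3 alveolar macrophage-like cells were left, each with Chil3 UMIs. They held 63 UMIs together, 36 of them in 1 cell, which gave 3540 CPM (2720 to 4529). The log2 ratio to low burden was −0.74 (−1.12 to −0.38), and it rests on these 3 cells. In the other classes Chil3 at high burden lay between 5.04 CPM in ciliated-like and 30.9 CPM in club-like cells. Among the 12 classes of 20 or more cells, none differed from the next beyond counting error, and club-like and neutrophil-like cells lay above the lymphocyte-like level of 10.2 CPM (8 UMIs). A single cell held 10 of the 19 club-like UMIs, and 9 remained without it. In neutrophil-like cells 1 cell held 11 of 28, and 17 remained. In the sum of all kept cells Chil3 went from 816 to 14.8 CPM, a log2 ratio of −5.78 (−5.89 to −5.68), while 26.8% of 13635 genes were 2-fold or more lower. Fewer alveolar macrophages and less Chil3 in each cannot be told apart in that sum. Without the alveolar macrophage-like cells the libraries held 148 and 13.6 CPM.

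In other myeloid-like cells Chil3 went from 517 UMIs (285 CPM, 261 to 311) to 139 UMIs (14.1 CPM, 11.9 to 16.6). The log2 ratio was −4.34 (−4.62 to −4.06), where 10.5% of the 9711 genes were 2-fold or more lower. Cells with a UMI made up 40.1% and 12.8%, and after thinning 25.7%, with 52 cells left out, and 4.05%. Each of the 4 gates with cells had a lower level at high burden. The neutrophil-like level went from 1143 to 26.1 CPM, the monocyte-like level from 375 to 23.9 CPM, the macrophage-like level from 157 to 12.3 CPM and the dendritic-like level from 116 to 10.4 CPM. The macrophage-like gate held 51 cells at low and 664 at high burden. Lymphocyte-like cells went from 217 to 10.2 CPM, a log2 ratio of −4.41 (−5.64 to −3.40), where 8.74% of 4154 genes were 2-fold or more lower and 6.62% higher. The ratio was −2.70 in endothelial-like cells (−3.57 to −1.95, background 3.13% lower and 3.09% higher), −2.27 in AT2-like cells (−3.34 to −1.34, background 2.57%) and −1.53 in stromal-like cells (−2.23 to −0.89, background 9.37%).

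**Figure D4:**
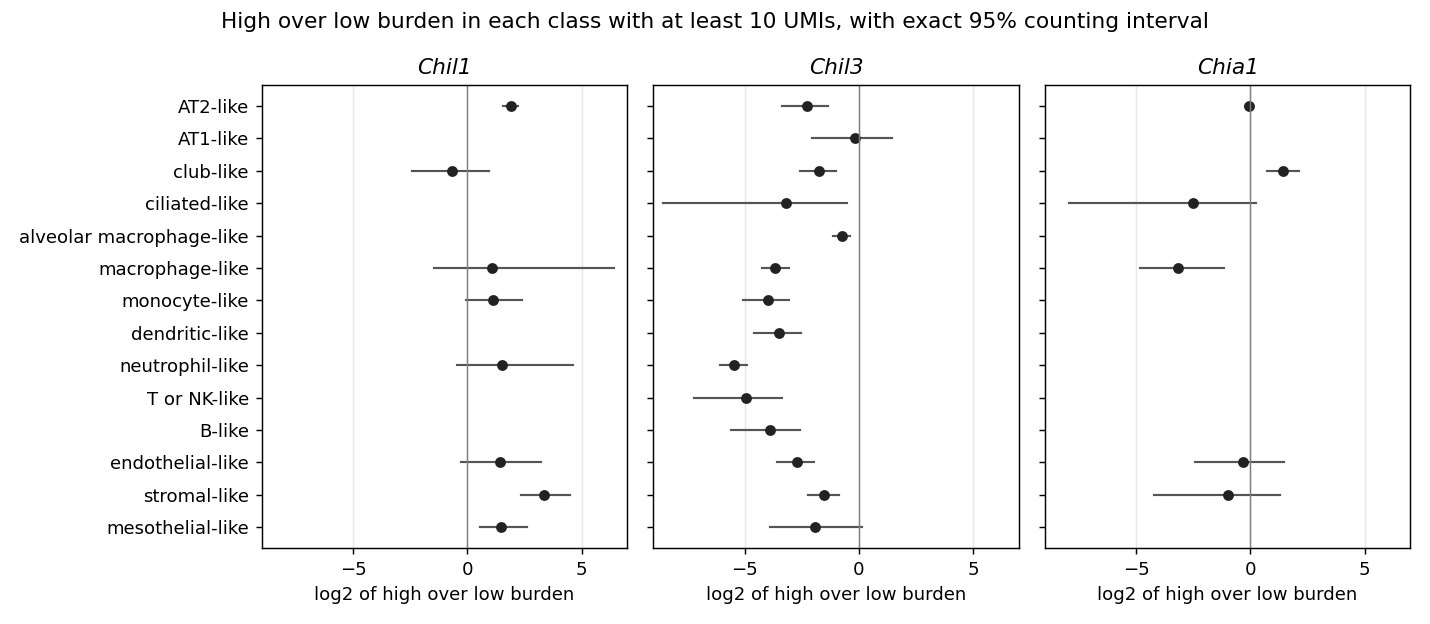
Log2 ratio of high over low burden for each gene and class, with exact 95% counting intervals, where a class had at least 10 UMIs over both libraries and at least 1 in each. Chil1 lay above 0 in AT2-like (1.90), stromal-like (3.35) and mesothelial-like cells (1.495), Chil3 below 0 in most classes, and Chia1 near 0 in AT2-like cells (−0.07). With the 6 top Chil1 cells of each library left out, the AT2-like value of Chil1 was 0.49 (−0.04 to 1.02).

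Outside the alveolar macrophage-like class, Chil3 was seen beside other alveolar macrophage genes. Alveolar macrophage-like cells had 29.3 Chil3 UMIs per 100 UMIs of Ear1, Ear2, Ear6, Ear10, Fabp1, Krt79 and Plet1 at low burden. Monocyte-like cells had 32.02, dendritic-like cells 30.8 and AT2-like cells 32.3, each with a log2 interval of the ratio to that class that includes 0. Neutrophil-like cells had 37.5, with an interval above 0 (0.14 to 0.56). The interval also lay above 0 in macrophage-like (53.1) and club-like cells (45.0), and below 0 in ciliated-like cells (9.22, −2.40 to −1.03). Lymphocyte-like (48.6), endothelial-like (55.6) and stromal-like cells (49.2) had up to a log2 ratio of 0.92 more Chil3 per panel UMI. At high burden the ratio was 25 in the 3 alveolar macrophage-like cells, 25.7 in other myeloid-like and 27.6 in lymphocyte-like cells, with a range over all classes from 1.89 in ciliated-like to 67.9 in club-like cells. The level of the 7 genes in other myeloid-like cells went from 826 to 54.8 CPM between the libraries, beside the change in Chil3. The part of alveolar macrophage RNA in the Chil3 level of other classes was not tested.

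**Figure D5:**
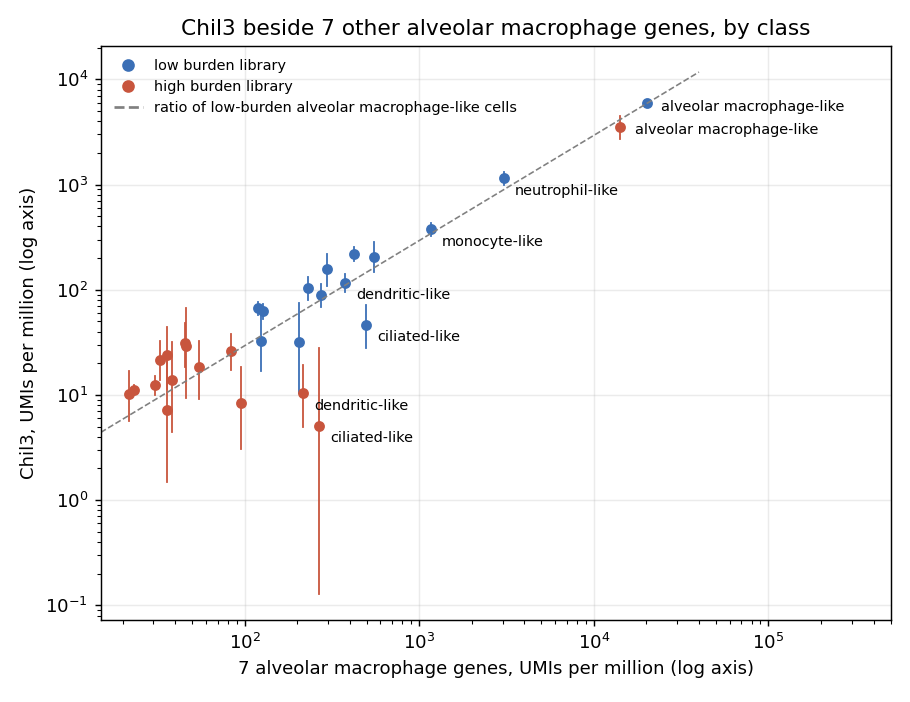
Chil3 (vertical axis, with exact 95% counting intervals) against the summed level of 7 alveolar macrophage genes (horizontal axis) in each class and library, both as CPM on log axes. The dashed line is the ratio in low burden alveolar macrophage-like cells, 29.3 per 100, whose gate used the 7 genes as markers. At low burden, monocyte-like cells lie near the line and neutrophil-like cells above it, at 37.5 per 100.

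The rest of the family was sparse. Of 11 genes on the list of glycosyl hydrolase 18 genes, 10 were listed in the files. Ctbs and Chid1, which encode a lysosomal chitobiase and a chitinase domain protein, were found at a low level in most classes, with 12.9 and 7.81 CPM for Ctbs and 19.7 and 32.1 CPM for Chid1 over all kept cells. Chit1, the second active chitinase, had 0 UMIs at low burden (up to 0.226 CPM) and 14 at high burden, of which 8 were in metastatic-like and 4 in mesothelial-like cells. Chil5 had 12 and 3 UMIs, 7 of the 12 in lymphocyte-like cells. Ovgp1 had 10 and 19 UMIs, and Chil6 had 0 in both. In AT2-like cells 3 of these genes reached 50 UMIs, and they were Chil1, Chil3 and Chia1, with 1 higher and 1 lower by 2-fold, beside 5.43% and 2.57% of all genes tested there.

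Among receptors and partners of these proteins, Cd44 and Lgals3 were the best covered in AT2-like cells beside Ager. Il13ra2, a receptor for the Chil1 product, had 0 UMIs in the low burden library and 5 in the other, all in metastatic-like cells. Its partner Tmem219 was found at 54.7 and 41.4 CPM over all kept cells. Cd44 stood at 124 and 117 CPM in AT2-like cells, and at 321 and 142 CPM in other myeloid-like cells (log2 ratio −1.18, −1.32 to −1.04). Lgals3 (galectin-3) stood at 166 and 288 CPM in AT2-like cells (0.80, 0.45 to 1.14). Ager, a marker of AT1 cells, went from 126 to 37.2 CPM in other myeloid-like cells (log2 ratio −1.76). It also went from 259 to 33.3 CPM in lymphocyte-like cells (−2.96), the background class. Ptgdr2 had 1 UMI in all. Of the 6 genes, 4 reached 50 UMIs in other myeloid-like cells, with 0 higher and 2 lower by 2-fold, beside 12.4% and 10.5% of all genes tested there.

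Of the genes that induce Chil3, the type 2 cytokines were rarely seen. Il4 had 5 UMIs in the low burden library and 0 in the other, Il13 0 and 3, the latter in 1 metastatic-like cell, and Il25 0 in both. The alarmin Il33 stood at 171 and 147 CPM in AT2-like cells, 325 and 169.7 CPM in mesothelial-like cells and 67.4 and 76.4 CPM in stromal-like cells. Its log2 ratio in AT2-like cells was −0.23 (−0.64 to 0.18), beside 1.90 for Chil1. In other myeloid-like cells the receptor chain Il4ra went from 24.8 to 67.1 CPM (1.43, 1.00 to 1.90) and Il13ra1 from 77.8 to 34.9 CPM (−1.16, −1.44 to −0.86). Stat6, the factor that carries the IL-4 signal, stood at 44.7 and 35.3 CPM. Of the 12 genes of this list, 6 reached 50 UMIs in these cells, with 1 higher and 1 lower by 2-fold and a median log2 ratio of −0.30, beside 12.4% higher, 10.5% lower and a median of 0.06 over all genes tested.

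Type 2 response genes other than the chitinases differed in direction. In other myeloid-like cells Arg1 (arginase 1) went from 2 to 784 UMIs (log2 ratio 6.17, 4.31 to 9.22). Retnla stood at 339.7 and 282 CPM there and Mrc1 at 105 and 99.04 CPM, while Ccl17 (−1.41) and Mgl2 (−1.72) were lower. These sums mix gates whose share of the class differed between the libraries, and within a gate some values differed from them. Arg1 is a marker of the macrophage-like gate, Ccl17 of the dendritic-like gate and Mrc1 of the alveolar macrophage-like gate. The values of these genes in myeloid classes therefore depend in part on how cells were assigned. In macrophage-like cells Retnla went from 2332 to 341 CPM (−2.77, −2.91 to −2.63) and Mrc1 from 480.4 to 122 CPM (−1.98, −2.27 to −1.67). In dendritic-like cells Ccl17 went from 661 to 1283 CPM (0.96, 0.82 to 1.10), and Mgl2 was lower in both gates (−2.50 and −1.35). Of the clusters made up mostly of macrophage-like cells, 3 held 461, 329 and 89 cells of the high burden library beside 2, 8 and 4 of the other. Of the 10 genes of this list, 8 reached 50 UMIs in these cells, with 2 higher and 2 lower by 2-fold and a median log2 ratio of −0.17, beside the same 12.4%, 10.5% and 0.06 over all genes. In AT2-like cells Retnla went from 7 to 149 UMIs (4.68, 3.60 to 6.02), most of them in the 8 cells described above.

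The genes most like each member were found by Pearson's r of log2(CPM + 10) over 26 sums of class and library of 20 or more cells, among 11335 genes, as a description without a p, since classes of 1 library share depth and free RNA. For Chia1 they were Pla2g1b (0.98), Sfta2 (0.98), Sftpd (0.96), C6 (0.96) and Cxcl15 (0.96). For Chil3 they were Ear2 (0.98), Ear10 (0.97), Ear1 (0.97), Fabp1 (0.95) and Krt79 (0.94). All 5 are markers of the alveolar macrophage-like gate, and Sftpd and Cxcl15 are markers of the AT2-like gate. Cells of these classes were selected for those genes, so a high r was partly set by the gates. For Chil1 the values were lower, with Npc2 (0.81), Bex4 (0.77), Il33 (0.75), Zdhhc3 (0.74) and Egfl6 (0.72), and only 2 of these 5 were kept when 1 CPM was added in place of 10.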

How the data were processed

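The deposited values are raw UMI counts per gene and cell, which the authors made with Cell Ranger 2.0.2 (submitters' processing notes) on mm10 with the PYMT sequence added, with 14041471 UMIs at low and 52723173 at high burden. Whether they precede the study's aggregation of libraries, and the annotation release, are not given in the sources used here. Counts were used without normalization. A gate score is the mean of the scaled log levels of a class's markers, in SD. A cell joined a class with a score of at least 1, at least 3 markers with a UMI and a lead of at least 0.5 over the next class. Cells between classes stayed without one, and no doublet caller was run. Of 155 listed markers 5 were not in the gene lists. Members and lists were chosen with earlier results of these data known, and the gate thresholds with the data in view. Named are the 3 members, the genes of 4 lists and the 5 genes most like each member. Cells are not replicates, so the study's t test across cells was not used. Python 3.11.15, NumPy 2.4.6, SciPy 1.17.1, scikit-learn 1.9.0 and leidenalg 0.10.2 were used. The ratio and its interval were tested on simulated class sums with independent Poisson counts. The interval assumes such counts, so the simulation leaves out the uneven spread of UMIs over cells.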

Additional observations from a re-analysis of the deposited data

Results flagged for a closer look

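The cells that the study's filter removed, 195 at low and 88 at high burden, enter no comparison, and all 3 genes had a signal there above the limit that a count of 0 allows (3.96 CPM and 2.39 CPM). At low burden the removed cells held 11.9 CPM of Chil1, 135 CPM of Chil3 and 36.9 CPM of Chia1. At high burden they held 5.58 CPM of Chil1, 10.4 CPM of Chil3 and 6.37 CPM of Chia1.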

How the results depend on the processing

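No paired analysis was possible because each group had 1 sample, and no replicate could be left out. Of 61 alternative values of 6 results, 47 stayed within the counting interval and 14 moved further. The Chia1 ratio in AT2-like cells, whose interval includes 0, changed sign under 4 alternatives, and its interval lay above 0 under 2 of them. The other 4 ratios kept their sign. Chil3 in low burden alveolar macrophage-like cells, 5893 CPM, was 5562 with Leiden clusters in place of gates, 5761 as a mean of cells, 6263 at 3000 UMIs per cell and 5676 with the lymphocyte-like level subtracted. The Chil1 ratio in AT2-like cells, 1.90 on the log2 scale, was 2.46 with clusters, 1.49 as a mean of cells, 1.504 at 3000 UMIs per cell and 0.54 without cells with a PYMT UMI. The Chia1 ratio there, −0.07, was 0.26, 0.21 and 0.12 under the first 3 of these and 0.29 in cells with at least 15% surfactant UMIs, with intervals of 0.08 to 0.44 for clusters and 0.11 to 0.47 for the surfactant limit. The Chil3 ratio in other myeloid-like cells, −4.34, was −3.18 with clusters and −4.79 as a mean of cells. The cause was not tested. The limit on surfactant share was chosen after the data had been seen. Outside the 61 values, the Chil1 ratio in AT2-like cells was 0.49 without the 6 top cells of each library. Its interval (−0.04 to 1.02) includes 0. The ratio of Chil1 in AT2-like over alveolar macrophage-like cells ranged from 6.84 to 8.05 and that of Chia1 over lymphocyte-like cells from 6.53 to 7.06. For the former, 2 alternatives gave no value, since without the top cell 0 UMIs were left in alveolar macrophage-like cells, and the lymphocyte-like level to be subtracted (3.15 CPM) exceeded theirs (0.647 CPM). Depth limits the classes with under 10 UMIs of a gene, and all intervals leave out the spread between mice.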
